A study of Mus musculus with 62 samples.

Results

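Nlrp3 loss on an amyloid background was examined in 12-month-old mice. CD11b+ brain cells from APPPS1 mice that lacked Nlrp3 (the APPPS1_NLRP3_12m group, 4 libraries) were compared with CD11b+ cells from APPPS1 mice with intact Nlrp3 (the APPPS1_12m group, 5 libraries). These 9 libraries were taken from 62 in the series by the start of their titles, and titles that carry the term Mxo4 were left out. Only genes on the autosomes were counted, which left 19215 of the 19865 genes tested. All 9 libraries share the APPPS1 transgenes, the age, the CD11b selection, 10 ng of RNA as input and amplification with the SMART-Seq v4 kit. The series title gives the Nlrp3 genotype as NLRP3-/-. The labels do not give the promoter of the transgenes, the deleted part of Nlrp3, the treatment that Mxo4 stands for or the sex of the mice, and they do not say that each library came from a separate mouse. The p-values below therefore rest on the spread between libraries of the same group, estimated over all 62 libraries. That spread may be technical in part.

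Nlrp3 encodes the sensor of an inflammasome, a complex in macrophages and microglia in which the adaptor ASC (gene Pycard) joins the sensor to caspase-1 (Casp1). Active caspase-1 cleaves the precursors of interleukin-1β and interleukin-18 and the pore-forming protein gasdermin D. NF-kB signalling raises the transcription of Nlrp3, Il1b and many other cytokine genes beforehand, a step called priming. In mice with amyloid plaques, microglia near plaques lower homeostatic genes such as Tmem119 and P2ry12 and raise a disease-associated set that includes Apoe, Trem2 and Cst7.

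Several features of the libraries move with the genotype, and they stand before the results. Xist and 4 Y-linked genes put all 5 APPPS1_12m libraries as female and all 4 APPPS1_NLRP3_12m libraries as male, so sex and genotype cannot be told apart within these 9 libraries. The total count ran from 6187249 (APPPS1_12m replicate 41) to 25282933 (APPPS1_NLRP3_12m replicate 43), with a median of 17151885. The microglial markers were high in every library, with summed levels of 34630 to 42600 CPM (counts scaled to a common library total) without Nlrp3 and 35740 to 49120 CPM with it, and none of the 10 was called. Neuron markers were highest in APPPS1_NLRP3_12m replicates 49 and 44. Monocyte and neutrophil markers were highest in APPPS1_12m replicate 38.

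The targeted gene matched the labels. Nlrp3 (ENSMUSG00000032691, chromosome 11, 59541568 to 59566956, GRCm38) was at 117, 183, 148, 169 and 80.7 CPM in the APPPS1_12m libraries. It was at 0.492, 0.758, 0.651 and 2.27 CPM in the APPPS1_NLRP3_12m libraries, from 11, 12, 14 and 25 counts. The groups did not overlap, and the log2 difference was -7.17 ± 0.36 (SE, adjusted p 1.47e-21, edgeR quasi-likelihood test with Benjamini-Hochberg adjustment). Across the series, the 31 libraries with NLRP3 in the group name held 0 to 2.27 CPM and the 30 other libraries of usable depth 60.4 to 271 CPM.

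At an adjusted p under 0.05, 1165 of the 19215 autosomal genes differed, which is 6.06% of those tested. Of these, 513 were higher without Nlrp3 (2.67%) and 652 lower (3.39%), and the median log2 difference over all autosomal genes was 0.00. Whether called or not, 4.16% of the autosomal genes did not overlap between the groups, 2.13% with all libraries without Nlrp3 higher and 2.03% with all lower. The count of called genes depended on single libraries: it was 287 without APPPS1_NLRP3_12m replicate 44, 377 without replicate 49, 545 without APPPS1_12m replicate 35, 614 without replicate 41 and 2233 without replicate 37. With a term for sex, 165 genes were called, of which 156 were among the 1165. That term is estimated from the groups that hold both sexes, all of which are Mxo4 or 6-month groups. Without the 2 libraries highest in neuron markers, 60 genes were called, of which 58 were among the 1165. Without APPPS1_12m replicates 38 and 41, 267 were called.

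A smaller set kept its call and direction more widely. When each of the 9 libraries was left out in turn, 179 of the 1165 genes stayed past the threshold every time. Adding the sex term left 99 genes, 26 higher and 73 lower, and adding the fit without the 2 neuron-rich libraries left 34, of which 14 were higher and 20 lower. Under all 23 settings tried, 13 genes kept their call, 7 of them higher and 6 lower. Among those with a gene name were Nlrp3, Mamdc2, Rdh14, Lpin1 and Map3k8, which were lower, and Sgsh, Slc1a3, Me2 and Zfp488, which were higher. Of the 13, 3 are predicted genes. This set was picked after its values were seen, so it is a description and not a further test.

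Slc1a3 showed the largest rise among these named genes. It encodes the glutamate transporter GLAST, which in the healthy brain is mainly an astrocyte gene. Slc1a3 (ENSMUSG00000005360, chromosome 15, 8634124 to 8710764, GRCm38, minus strand) was at 230, 192, 261, 196 and 233 CPM in the APPPS1_12m libraries. In the APPPS1_NLRP3_12m libraries it was at 2479, 2418 and 2161 CPM in replicates 44, 46 and 49, and at 202 CPM in replicate 43. Thus 3 of the 4 libraries lay far above every APPPS1_12m library, while replicate 43 lay within their range. The log2 difference was 3.03 ± 0.37 (SE, adjusted p 2.71e-07), and it was 3.41 without replicate 43. Gm37310, a predicted gene at 8652106 to 8655073 inside the Slc1a3 locus, rose as well (log2 difference 4.03), and its reads cannot be separated from those of Slc1a3 because the strand setting of the counting is not given in the sources used here.

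Ranbp3l, which encodes a nuclear export factor for Smad proteins, lies near Slc1a3 on the same chromosome (8967949 to 9067335). It was at 25.1, 31.4 and 31.2 CPM in APPPS1_NLRP3_12m replicates 44, 46 and 49 and at 2.42 CPM in replicate 43. The 5 APPPS1_12m libraries held 1.48 to 4.95 CPM. The pattern by library was that of Slc1a3, with replicate 43 again among the controls. The log2 difference was 2.60 ± 0.44 (SE, adjusted p 2.59e-04). It lost its call with the 2 groups fitted alone (2.61, adjusted p 0.0585) and among libraries with the second title number 2 (1.95, adjusted p 0.0989), 1 of whose 2 APPPS1_NLRP3_12m libraries is replicate 43.

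The Slc1a3 level separated almost all libraries by Nlrp3 genotype across the series. Of the 31 libraries from NLRP3 groups, 29 lay above the highest of the 30 others, which was 459 CPM, and their median was 2291 CPM against 303 CPM. The 2 exceptions were APPPS1_NLRP3_12m replicate 43 and NLRP3_6m replicate 32, with 342 CPM. The same 2 libraries held 2.42 and 2.55 CPM of Ranbp3l and 0.492 and 0.557 CPM of Nlrp3. In both, then, Nlrp3 was nearly absent while Slc1a3 and Ranbp3l were at the level of libraries with intact Nlrp3. Such separation was not particular to Slc1a3. For Sgsh 29 and for Zfp488 27 of the 31 also lay above each of the 30 others. For Rnaset2b and Sft2d1 29 of the 31 lay below each of them. The series' interest in glutamate handling makes Slc1a3 a gene likely chosen on these mice, so its direction here is not independent evidence.

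**Figure D1:**
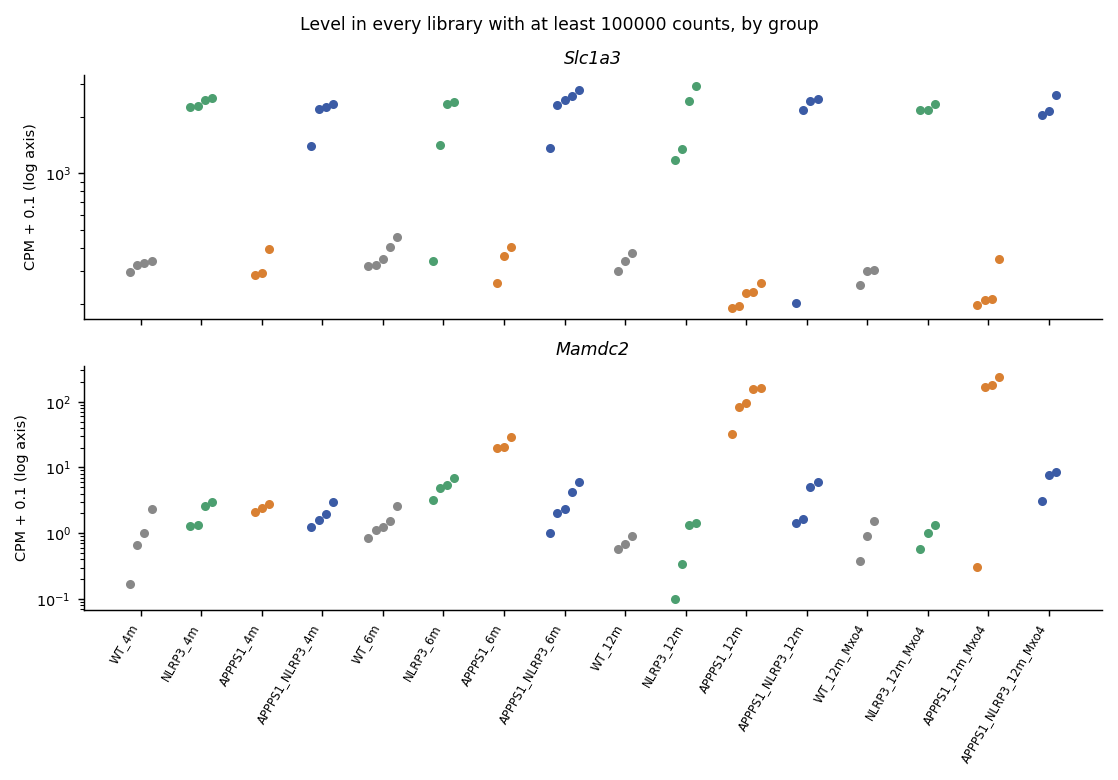
CPM plus 0.1 on a log axis for Slc1a3 (top) and Mamdc2 (bottom) in every library with at least 100000 counts, with 1 point per library and the 16 groups ordered by age and label. For Slc1a3, 29 of 31 NLRP3-group libraries lie above 459 CPM; Mamdc2 is high in APPPS1 groups with Nlrp3 at 6 and 12 months, except in APPPS1_12m_Mxo4 replicate 56 (0.206 CPM).

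Mamdc2 (chromosome 19, 23302609 to 23448442), which encodes an extracellular protein with MAM domains and belongs to the disease-associated list, was at 94.3, 159, 83.1, 32.6 and 160 CPM with Nlrp3. Without Nlrp3 it was at 4.92, 1.33, 5.86 and 1.55 CPM. The groups did not overlap, and the log2 difference was -4.89 ± 0.71 (SE, adjusted p 1.66e-05). Mice without the transgenes held little of it at 12 months in either genotype, with 0.623 ± 0.17 CPM in WT_12m (SD, n = 3) and 0.706 ± 0.68 CPM in NLRP3_12m (SD, n = 4). Among APPPS1 mice with Nlrp3, the median was 2.34 CPM at 4 months, 20.6 CPM at 6 months and 94.3 CPM at 12 months, while in APPPS1_NLRP3 mice it was 1.68, 2.27 and 3.23 CPM. It fell in the Mxo4 libraries (-4.35, adjusted p 0.00293) and at 6 months (-2.90, adjusted p 0.0183).

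Sgsh, which encodes a lysosomal enzyme that degrades heparan sulfate, was at 6.84, 8.97, 11.2, 10.96 and 5.64 CPM with Nlrp3 and at 29.2, 24.6, 30.97 and 48.3 CPM without it. The groups did not overlap (log2 difference 1.90 ± 0.23, SE, adjusted p 2.60e-07). Me2, which encodes a mitochondrial malic enzyme, was at 25.1, 29.5, 23.3, 29.7 and 26.9 CPM with Nlrp3 and at 68.3, 68.4, 74.4 and 60.8 CPM without it. Its spread was small in each group and the groups did not overlap (1.33 ± 0.19, SE, adjusted p 1.01e-05). Me2 also rose in the Mxo4 libraries (1.03, adjusted p 0.0125) and at 6 months (0.89, adjusted p 0.0234), and its difference was 0.18 without the transgenes (adjusted p 0.752). The difference between those backgrounds was not called.

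Lpin1, whose product turns phosphatidic acid into diacylglycerol, fell from 83.3 ± 17.7 CPM (SD, n = 5) to 33.6 ± 1.80 CPM (SD, n = 4), with a log2 difference of -1.32 (adjusted p 1.66e-05). The highest library without Nlrp3 held 35.1 CPM and the lowest library with it 58.6 CPM. Rdh14, a retinol dehydrogenase gene on the same chromosome 12, fell from 54.9 ± 11.5 CPM to 35.2 ± 4.54 CPM (-0.65, adjusted p 9.05e-06). Map3k8, which encodes the kinase Tpl2 of the inflammatory MAP kinase pathway, fell from 138 ± 25.8 CPM to 71.2 ± 6.04 CPM (-0.96, adjusted p 5.40e-05). None of these 3 genes overlapped between the groups.

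Several called genes lie near each other on chromosome 17. Rnaset2b (start 6970634), a ribonuclease gene, was at 60.2, 30.2, 40.4, 51.8 and 60.1 CPM with Nlrp3 and at 11.5, 10.5, 9.12 and 11.5 CPM without it (log2 difference -2.19, adjusted p 9.62e-06). Its near-identical copy Rnaset2a (start 8115445) went the other way, from 59.96 ± 17.2 to 101 ± 10.97 CPM (0.76, adjusted p 0.0168). How the counting divided reads between these copies is uncertain. Mpc1 (start 8282904), a subunit of the mitochondrial pyruvate carrier, fell from 330 ± 199 to 123 ± 15.2 CPM (-1.40, adjusted p 1.06e-04). Sft2d1 (start 8311102), a vesicle transport gene, fell from 447 ± 214 to 208 ± 15.9 CPM (-1.09, adjusted p 5.40e-05). For both, APPPS1_12m replicates 35 and 41 were the highest libraries. Without the transgenes, in the Mxo4 libraries and at 6 months, Rnaset2b differed by -1.13, -1.61 and -1.63. Mpc1 differed by -0.375, -0.859 and -0.721, none of which passed the test, and Sft2d1 by -0.314, -0.533 and -0.491. Across the series, 29 of the 31 NLRP3-group libraries lay below each of the 30 others for Rnaset2b and Sft2d1, and 19 for Mpc1.

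**Figure D2:**
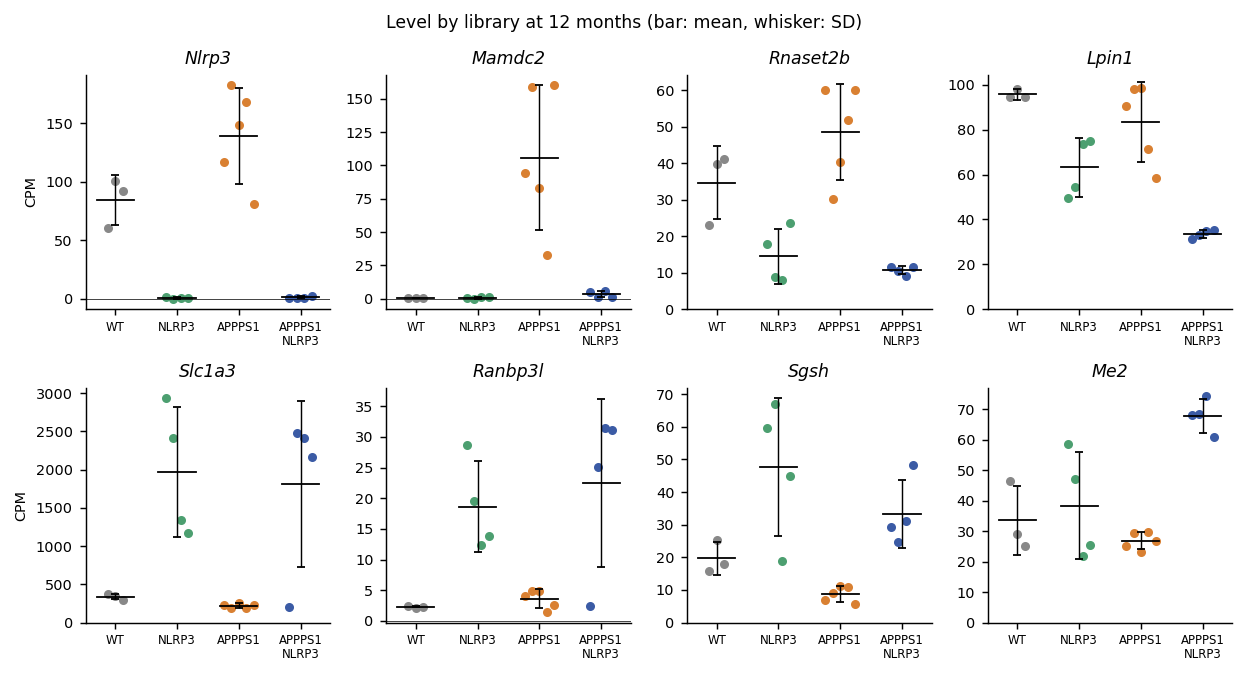
CPM by library in the 4 groups at 12 months without Mxo4, with the mean as a bar and the SD as a whisker. In the APPPS1_NLRP3 group Nlrp3, Mamdc2, Rnaset2b and Lpin1 lie below every APPPS1 library, Sgsh and Me2 above, and replicate 43 holds only 202 CPM of Slc1a3 and 2.42 CPM of Ranbp3l.

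Beyond the sensor itself, the inflammasome and IL-1 family list moved little. Of its 24 tested members, 2 were lower and 0 higher, Nlrp3 and Casp1, against 6.06% of all genes, and the list's median log2 difference was -0.18. Casp1 was at 103, 67.9, 69.5, 85.3 and 151 CPM with Nlrp3 and at 78.7, 73.6, 68.0 and 59.4 CPM without it. The groups overlapped, and the log2 difference was -0.44 ± 0.11 (SE, adjusted p 0.0135). Casp1 lost this call with the sex term, without the 2 neuron-rich libraries and in 3 of the 9 fits that left out 1 library. The differences of Pycard (-0.14), Gsdmd (-0.23), Il18 (-0.31) and Il1rn (-0.92), the last of which encodes the receptor antagonist of interleukin-1, did not pass the test, with adjusted p from 0.0802 to 0.624.

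The Il1b difference had opposite signs with and without the transgenes at 12 months. With them it was at 1990, 1524, 1034, 1867 and 2228 CPM in the APPPS1_12m libraries and at 817, 1073, 1025 and 1273 CPM in the APPPS1_NLRP3_12m libraries. The groups overlapped and the log2 difference of -0.72 ± 0.30 (SE) did not pass the test (adjusted p 0.132). Without the transgenes it was higher in NLRP3_12m (788 ± 298 CPM, SD, n = 4) than in WT_12m (223 ± 70.8 CPM, SD, n = 3), and this rise of 1.82 ± 0.36 passed (adjusted p 0.00368). The difference between the backgrounds was -2.55 (adjusted p 0.0289), and Il1b was the single gene called in that test, 0.0052% of the genes, against 1936 genes at an unadjusted p under 0.05 and 71 genes called by DESeq2. This call was lost without any of APPPS1_12m replicates 35 and 41, APPPS1_NLRP3_12m replicates 44 and 46, NLRP3_12m replicate 45 and WT_12m replicates 34 and 40 (adjusted p from 0.0549 to 0.168). In the other APPPS1 sets Il1b was higher without Nlrp3 in every library: 369 to 446 against 153 to 217 CPM at 4 months, 1082 to 1882 against 455 to 652 CPM at 6 months and 1514 to 2316 against 176 to 1322 CPM in the Mxo4 libraries. At 6 months (adjusted p 0.0511) and in the Mxo4 libraries (adjusted p 0.172) the difference did not pass the test, and at 4 months, where all libraries of both groups were female, it was not tested. Among the APPPS1 sets, the lower level without Nlrp3 was thus seen in the 12-month set without Mxo4 alone. Without the transgenes the sexes are split by genotype in the same way, with 3 female WT_12m and 4 male NLRP3_12m libraries.

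Of the 24 tested members of the list of cytokines and feedback genes of NF-kB, 6 were lower and 0 were higher without Nlrp3, against 3.39% and 2.67% of all genes. The other 18 did not pass the test, 5 members lay above 0, and the list's median was -0.56 against 0.00 over all genes. These were Il6, Ccl2, Ccl3 and Ccl4, which encode secreted cytokines and chemokines, Nfkbia, which encodes the NF-kB inhibitor IκBα, and Cd14, which encodes a co-receptor for lipopolysaccharide. The list's median was 0.24 without the transgenes, 0.14 in the Mxo4 libraries and 0.49 at 6 months, with 1, 0 and 2 members higher and none lower. With the sex term the count was 1 lower and the median -0.25. It was also 1 lower without the 2 neuron-rich libraries, with a median of -0.57, and 0 among libraries with the second title number 1, with a median of -0.35, and 6 among those with the number 2, with a median of -0.53. Over all autosomal genes the fits within numbers 1 and 2 called 34 and 2246.

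Il6, an inflammatory cytokine, was at 106, 32.8, 21.7, 25.9 and 47.7 CPM with Nlrp3 and at 17.4, 17.9, 12.7 and 16.8 CPM without it. The groups did not overlap, and replicate 35 alone was above 50 CPM. The log2 difference was -1.50 ± 0.24 (SE, adjusted p 1.01e-04), -1.01 without replicate 35 and -0.88 among libraries with the second title number 1, where it did not pass (adjusted p 0.182). Il6 differed by -0.18 without the transgenes, -0.40 in the Mxo4 libraries and -0.15 at 6 months. Nfkbia was at 1247, 1369, 910, 1095 and 1513 CPM with Nlrp3 and at 798, 616, 628 and 799 CPM without it (-0.79, adjusted p 0.0157). Cd14 was at 882 to 1608 CPM with Nlrp3 and at 724 to 778 CPM without it (-0.77, adjusted p 0.0159). Neither overlapped between the groups, while Ccl4 did, at 2138 to 4028 against 1444 to 2212 CPM (-0.87, adjusted p 0.0119).

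The upstream sequences of Il6 and Nfkbia are shown because both fell and both are known NF-kB targets. They are the 250 bases before the gene start from RefSeq, on the gene's own strand, and capitals mark matches to an NF-kB motif (GGG, any 2 bases, then TTTCC), searched on both strands. The RefSeq table held Il6, Nfkbia and Ccl3 among the 6 genes that fell, and Il1b.
Il6, GRCm38.p6, chr5:30012864-30013113, plus strand: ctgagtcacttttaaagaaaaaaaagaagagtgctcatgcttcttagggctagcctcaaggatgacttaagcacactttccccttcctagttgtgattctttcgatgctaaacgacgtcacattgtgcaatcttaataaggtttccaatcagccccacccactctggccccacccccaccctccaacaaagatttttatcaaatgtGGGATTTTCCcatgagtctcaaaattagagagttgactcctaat
Nfkbia, GRCm38.p6, chr12:55492648-55492897, minus strand: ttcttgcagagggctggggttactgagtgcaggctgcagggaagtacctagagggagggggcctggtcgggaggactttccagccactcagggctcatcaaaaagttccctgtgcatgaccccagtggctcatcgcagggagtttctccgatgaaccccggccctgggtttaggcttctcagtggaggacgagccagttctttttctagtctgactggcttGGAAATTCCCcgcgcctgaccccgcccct
Of 32851 such windows, 464 (1.41%) held the motif at least once. Il6 held 1 match on the gene's strand, starting 44 bases before the gene start, and Nfkbia held 1 on the opposite strand, starting 29 bases before it. The windows of Ccl3 and Il1b held no match to these letters. A match is a description of the sequence and says nothing of binding in these cells.

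**Figure D3:**
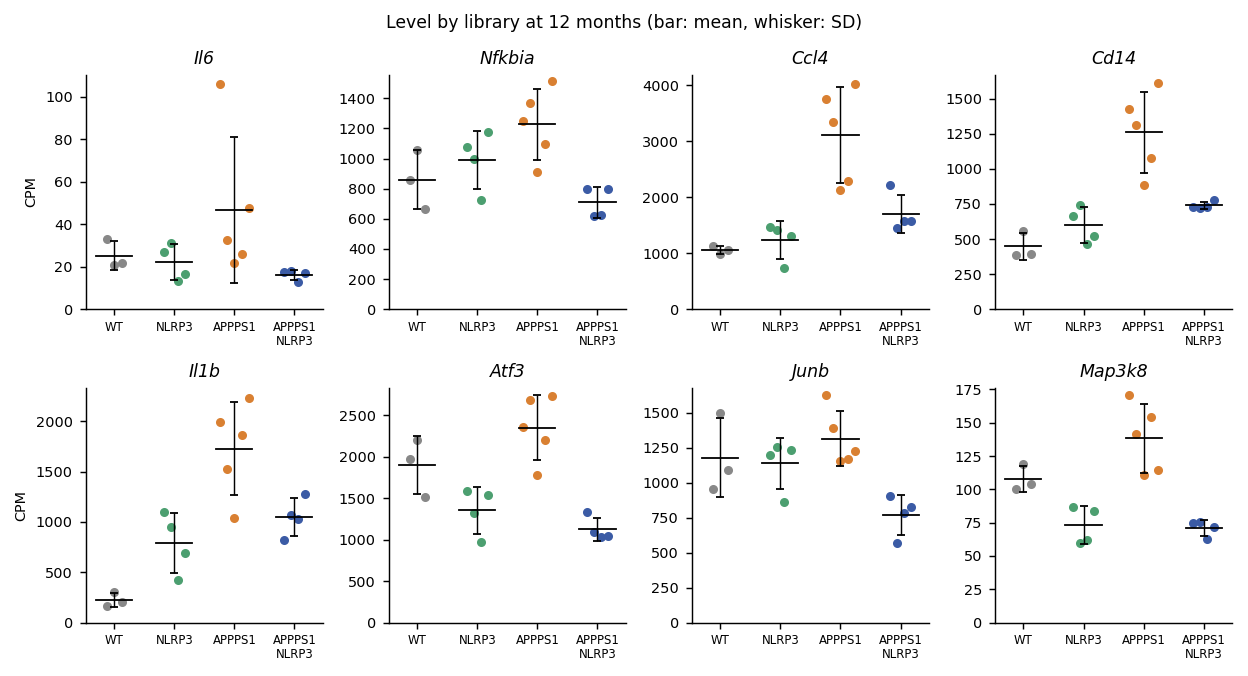
CPM by library at 12 months for 8 inflammatory genes, with the mean as a bar and the SD as a whisker. Il6, Nfkbia, Cd14, Atf3, Junb and Map3k8 do not overlap between APPPS1 and APPPS1_NLRP3; Il1b and Ccl4 do, and Il1b is lowest in WT.

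The immediate-early list holds genes many of which rise within minutes of cell dissociation. Of 24 tested, 5 were lower and 0 higher, against 3.39% of all genes lower, with a median of -0.57, and their summed level ran from 11520 to 17270 CPM without Nlrp3 and from 20760 to 28830 CPM with it. Atf3, a stress-induced transcription factor, was at 2351, 2685, 1777, 2203 and 2731 CPM with Nlrp3 and at 1327, 1091, 1031 and 1041 CPM without it (-1.08, adjusted p 0.0072). Junb (-0.77), Ier2 (-0.85), Klf4 (-1.09) and Dusp1 (-1.04), all rapidly induced genes, fell too, with adjusted p from 0.0158 to 0.0440. None of these 5 genes overlapped between the groups. Over all genes 2.03% were lower without overlap, and of the 859 called genes with at least 5 CPM, 290 did not overlap. Dusp1 kept its call in 1 and Ier2 in 2 of the 9 fits that left out 1 library. With the sex term 2 were called lower (median -0.77), and without the 2 neuron-rich libraries none was (-0.40). The median was -0.21 without the transgenes, 0.03 in the Mxo4 libraries and 0.50 at 6 months, and no member was called in these. Without the transgenes the summed level did not overlap either, at 16330 to 21720 CPM in NLRP3_12m and 26280 to 27370 CPM in WT_12m. The part of cell handling in these differences was not tested.

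Disease-associated genes other than Mamdc2 did not pass the test over all libraries. Of 27 tested, 26 had a log2 difference below 0, with a median of -0.44, but 1 was called. Among libraries with the second title number 2, 13 of the 27 were lower (median -0.88), and among those with the number 1, 1 was (median -0.16). The fit within number 2 set APPPS1_NLRP3_12m replicates 43 and 44 against APPPS1_12m replicates 35 and 41. It called 2246 autosomal genes, 42.1% of them higher, and the fit within number 1 called 34. Over all libraries, Apoe (-0.64), Cst7 (-0.44) and Trem2 (-0.41) had adjusted p of 0.228, 0.646 and 0.196. Apoe was at 6825 to 13540 CPM with Nlrp3, against 4687 to 7928 CPM without Nlrp3. Cst7 was above 0 with the sex term (0.11). The groups that inform this term include APPPS1_12m_Mxo4 (1 female, 3 male). Its male replicate 56 held 0.206 CPM of Mamdc2, against 166 to 239 CPM in the others of that group. The part of that library in the values with the sex term was not tested. Of 22 homeostatic genes, 2 rose and 0 fell, against 2.67% and 3.39% of all genes. Those 2 were Slc2a5, a fructose transporter of microglia (0.62, adjusted p 0.0106), and Adgrg1, an adhesion receptor (0.49, adjusted p 0.0454). Tmem119 was at 1543 to 1880 CPM without Nlrp3 and at 1046 to 1526 CPM with it, with no overlap, yet its difference of 0.30 did not pass (adjusted p 0.244), and P2ry12 differed by -0.14 (adjusted p 0.661).

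Among phagocytic receptors, 2 of 25 rose, Tyro3 (1.74) and Lrp1 (0.54), and 1 fell, Fcgr4, against 2.67% and 3.39% of all genes. Fcgr4, which encodes an activating receptor for immunoglobulin G, was at 37.4, 30.1, 55.2, 59.2 and 67.5 CPM with Nlrp3 and at 24.95, 15.6, 21.1 and 14.4 CPM without it (-1.40, adjusted p 0.00122). The groups did not overlap, and the call was lost with the sex term (-0.91, adjusted p 0.115) and without the 2 neuron-rich libraries (-1.12, adjusted p 0.119). Tyro3 was low throughout, at up to 4.00 CPM, and kept its call in 4 of 23 settings, and Lrp1 in 11. In the MHC class I list 1 of 17 fell, H2-K1 (-0.60, adjusted p 0.0363), which belongs to a family of similar genes. In the MHC class II (10 tested), interferon (26), lysosome (25) and complement (17) lists none was called, with medians of -0.21, -0.30, -0.08 and -0.19. With the sex term the interferon and lysosome medians changed sign (0.20 and 0.02) and the MHC class II median was -0.05. Among libraries with the second title number 2, where 2246 autosomal genes were called, 4 lysosome genes were lower. Samd9l (-2.003) and Plscr1 (-1.61), interferon-inducible genes outside those lists with some of the smallest p-values, fell, with adjusted p of 9.11e-05 and 2.59e-04.

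**Figure D4:**
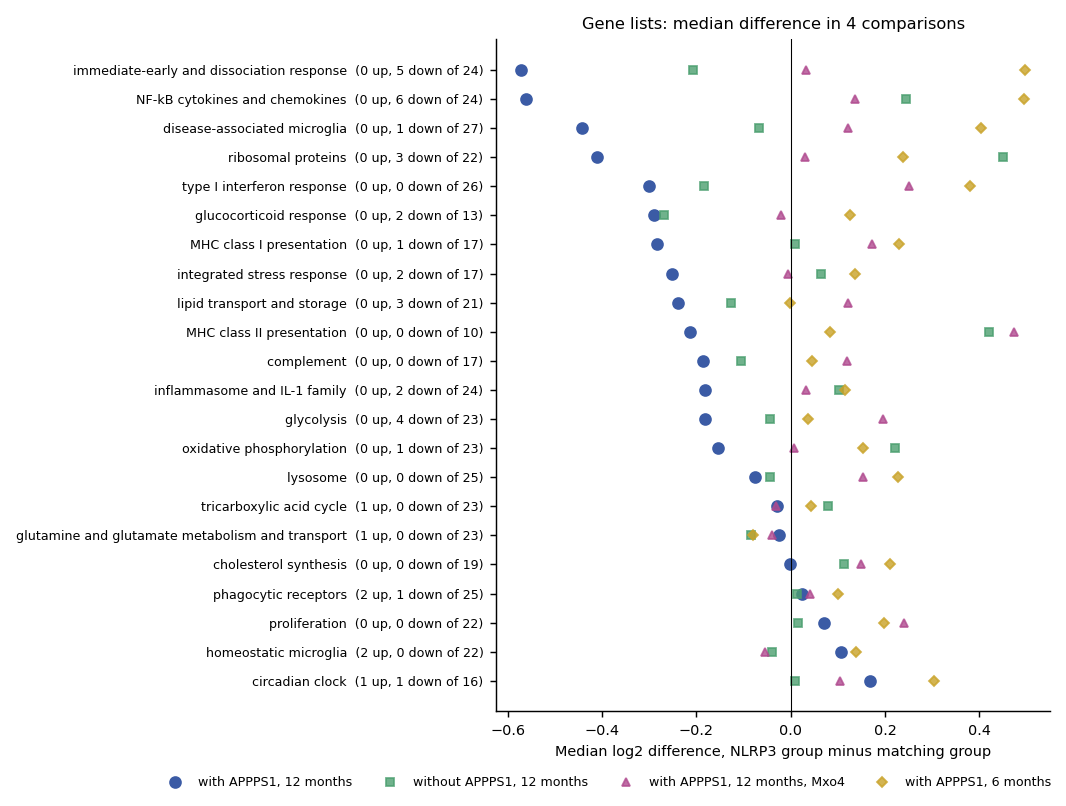
Median log2 difference (NLRP3 group minus matching group) of 22 gene lists in the APPPS1 comparison at 12 months and in 3 comparisons that share no library with it. Labels give the members called higher and lower in the APPPS1 comparison at 12 months; NF-kB genes lie at -0.56 there and above 0 in the other 3.

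Metabolic lists held 0 to 4 called genes each. Over all genes 2.67% were higher and 3.39% lower. In the glutamine and glutamate list, which was taken with the study's interest in view and is not independent evidence, 1 of 23 rose, Slc1a3, and the median was -0.03. In the tricarboxylic acid cycle list 1 of 23 rose, Me2. In glycolysis 4 of 23 fell, namely the glucose transporter Slc2a1 (-0.72), the enzymes Eno1 (-0.65) and Ldha (-0.48) and the lactate transporter Slc16a1 (-0.58), with adjusted p from 0.00997 to 0.0273. No glycolysis gene was called with the sex term or without the neuron-rich libraries. Slc2a1 and Slc16a1 are also abundant in brain endothelium. In lipid transport and storage 3 of 21 fell: the lipid droplet genes Plin2 (-0.87) and Plin3 (-0.82) and Fabp4 (-3.79), the last through APPPS1_12m replicate 38 (5.99 CPM). Plin2 was at 271, 262, 138, 204 and 246 CPM with Nlrp3 and at 131, 129, 123 and 109 CPM without it, with no overlap (adjusted p 0.00622). No lipid, homeostatic, phagocytic or MHC class I gene was called with the sex term or without the 2 neuron-rich libraries. In the latter fit the lipid median was -0.22 against -0.24 over all libraries and the homeostatic median 0.20 against 0.11. Oxidative phosphorylation had 1 of 23 lower (Ndufs4, -0.50) and cholesterol synthesis 0 of 19. Among libraries with the second title number 2, 14 oxidative phosphorylation genes were lower (median -0.49), and with the number 1 none was called (0.08). Over all autosomal genes the fits within numbers 2 and 1 called 2246 and 34.

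Ribosomal protein genes were lower in 3 of 22 cases (Rps14, Rps27a and Rplp1), with a list median of -0.41, but the summed level overlapped, at 4158 to 5417 CPM without Nlrp3 and 3494 to 9353 CPM with it. APPPS1_12m replicates 35 and 41 were highest, and among libraries with the second title number 1 the median was 0.00 and 0 were called, while among those with the number 2 it was -0.84 and 18 were lower. Replicates 35 and 41 are the only APPPS1_12m libraries with the number 2. Over all autosomal genes the fits within numbers 1 and 2 called 34 and 2246. In the stress response list 2 of 17 fell (Atf4 and Nupr1), in the glucocorticoid list 2 of 13 (Dusp1 and Per1), and in the clock list 1 rose (Hlf) and 1 fell (Per1) of 16. The shares over all genes were 3.39% lower and 2.67% higher. None of 22 proliferation genes was called.

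The 12 largest rises with a gene name, at least 5 CPM and no overlap had log2 differences from 2.19 to 3.02. Among them were Syt16, Rab3c, Frrs1l, Dlgap1, Mal2, Mapk10, Sh3gl2, Rasgrf1, Atp2b2, Ppp2r2b and Prickle2. These 11 genes lost their call with the sex term and without the 2 neuron-rich libraries. Dlgap1, a scaffold of excitatory synapses, was at 1.22 to 4.57 CPM with Nlrp3 and at 5.10, 21.9, 8.42 and 31.7 CPM without it. Replicates 44 and 49 were the highest, as they were in the sum of the 11 neuron markers, which was 75.0, 389, 134 and 615 CPM in replicates 43, 44, 46 and 49 and 18.99 to 113 CPM in the APPPS1_12m libraries. Of these markers 7 rose and 0 fell, against 2.67% and 3.39% of all genes, with a median of 2.22. None was called without the 2 libraries (median 0.90) or with the sex term (median 2.25). The part of neuronal RNA in the 12 rises was not tested. Thy1, whose promoter is used in some transgenes, was at 0.179 ± 0.20 CPM with Nlrp3 and 1.39 ± 1.04 CPM without it (adjusted p 0.0633). App (0.14) and Prnp (0.33) did not pass either.

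Vessel genes fell. Of 11 endothelial markers 7 were lower and 0 higher, against 3.39% and 2.67% of all genes, with a median of -1.62. Of 6 pericyte markers 5 were lower, with a median of -1.56. The endothelial sum was 552 to 774 CPM without Nlrp3 and 887 to 1165 CPM with it, without overlap, and the pericyte sum was 11.9 to 41.2 against 52.7 to 90.9 CPM. Esam, an endothelial adhesion molecule, was at 14.7, 14.6, 23.5, 23 and 15.8 CPM with Nlrp3 and at 2.59, 2.40, 8.84 and 3.55 CPM without it (-2.06, adjusted p 9.74e-04). Adgrl4 (-2.08), Nostrin (-2.13), Emcn (-1.85), Ly6c1 (-1.77) and Slco1a4 (-1.79), also vascular genes, fell with no overlap. In bulk libraries, fewer vessel cells and less RNA per vessel cell cannot be told apart.

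Endothelial markers had the same direction where sex was split in the same way. Between NLRP3_12m and WT_12m, 6 of 11 were lower, against 1.09% of all genes, with a median of -1.54. The endothelial median was 0.19 in the Mxo4 libraries and -0.26 at 6 months, and none was called in either. Both Mxo4 groups held both sexes. At 6 months the APPPS1_6m libraries whose sex was read were all female, and APPPS1_NLRP3_6m held 2 female and 3 male. With the sex term 4 of the 11 remained lower in the APPPS1 comparison, with a median of -2.004, and without the 2 neuron-rich libraries none was called (-1.33). Of the pericyte markers 3 remained lower with the sex term and none without those libraries. The pericyte median was -1.42 at 6 months, with 2 lower, and -0.63 without the transgenes, with 0 called. The part of sex and of vessel contamination in this result was not tested.

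Markers of blood cells were low apart from single libraries. Of 10 monocyte markers 2 fell (Ly6c2 and Plac8), against 3.39% of all genes, and the list median was -1.21. It was 0.28 without APPPS1_12m replicate 38, whose summed monocyte markers were 460 CPM against 45.99 to 104 CPM in the other 8 libraries. Neutrophil markers, of which none was called, summed to 2990 CPM in the same library and to 55.8 to 456 CPM in the others. Of 7 tested T and NK cell markers, Gzma (-3.21) and Gzmb (-2.29), the granzymes of cytotoxic lymphocytes, fell. They were at most 3.90 CPM, and the marker sum was 2.93 to 4.86 against 5.99 to 12.8 CPM without overlap. Neither granzyme gene was called with the sex term or without the 2 neuron-rich libraries.

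**Figure D5:**
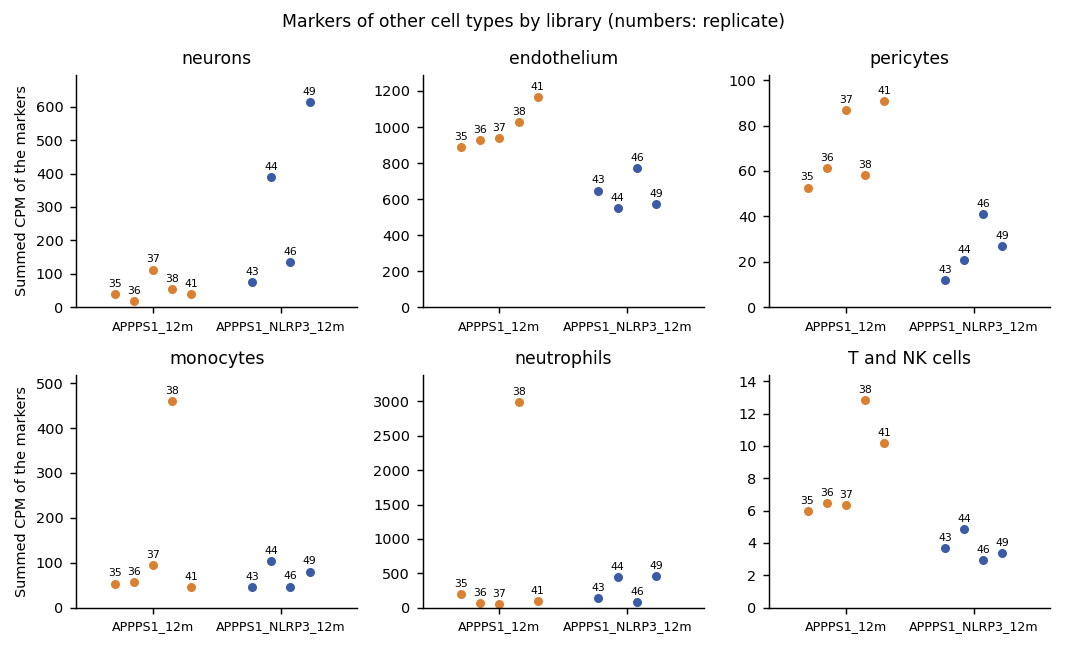
Summed CPM of markers of 6 other cell types in the 9 libraries, with 1 point per library labelled by its replicate number. Endothelial and pericyte sums do not overlap between the groups, neuron sums are highest in replicates 44 and 49, and monocyte and neutrophil sums in replicate 38.

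Other genes among the 12 largest falls were Gnb4, a G protein subunit (-2.72), Cyp2r1, a vitamin D 25-hydroxylase (-2.55), Osmr, the oncostatin M receptor (-2.44), the olfactory receptor gene Olfr1330 (-2.36) and Vwa1, an extracellular matrix gene (-2.07). Osmr also fell without the transgenes (-2.34, adjusted p 0.0108). Other genes with small p-values were Tnfrsf14, a receptor of the TNF family, which rose (1.12, adjusted p 2.16e-04), and the kinase Pim3 (-0.86) and the NF-kB adaptor Tifa (-0.56), which fell. Tnfrsf14 was at 12.9 to 15.2 CPM without Nlrp3 and at 5.21 to 8.07 CPM with it.

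Genes near Nlrp3 were called about as often as the rest of its chromosome. Within 20 Mb of Nlrp3 42 of 558 genes were called (7.53%), within 10 Mb 22 of 272 (8.09%), and further away on chromosome 11 66 of 925 (7.14%), against 6.06% over all autosomes. Over chromosomes the share ran from 4.39% on chromosome 8 to 9.27% on chromosome 18, with 9.01% on chromosome 15. Named genes within 20 Mb were Irf1, an interferon-response transcription factor (-0.68, adjusted p 0.00259, no overlap), Clk4, Ube2b, Psmb6, Wsb1 and Vtn, which fell, and Chd3, Gria1, Serpinf1 and Tsr1, which rose. Apart from Clk4 and Ube2b, these lost their call with the sex term, and apart from Ube2b, without the 2 neuron-rich libraries. Irf1 was at 315, 290, 251, 259 and 276 CPM with Nlrp3 and at 198, 157, 163 and 176 CPM without it.

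The same genotype contrast in other mice shared some of the calls. Without the transgenes at 12 months, 297 autosomal genes were called (1.55%; 0.453% higher and 1.09% lower), and 112 of them were among the 1165 in the same direction and 0 in the opposite, which is 9.61% of the 1165 and 37.7% of the 297. In the Mxo4 libraries 65 were called (0.338%; 0.146% higher and 0.193% lower), with 27 shared in the same direction and 0 in the opposite (2.32% and 41.5%). The library labelled APPPS1_12m_Mxo4 replicate 56 went against its label: it held 0.206 CPM of Mamdc2, 10.9 CPM of Cst7 and 1044 CPM of Apoe, where the other 3 of its group held 166 to 239, 1649 to 2396 and 9687 to 10610 CPM. Without it 64 genes were called, of which 41 were among the 65. The Mxo4 medians, differences and ranges given in this report include that library. At 6 months 100 were called (0.52%; 0.297% higher and 0.224% lower), with 35 shared in the same direction and 4 in the opposite (3% and 35%). The log2 differences of the 1165 genes had the same sign in 944 cases (81%) without the transgenes, in 729 (62.6%) in the Mxo4 libraries and in 561 (48.2%) at 6 months. Sex was split by genotype in the first of these contrasts as in the APPPS1 comparison. In the Mxo4 contrast both groups held both sexes. At 6 months the APPPS1_6m libraries whose sex was read were all female, and APPPS1_NLRP3_6m held 2 female and 3 male. None of these 3 contrasts shares a library with the APPPS1 comparison, though all 62 libraries share 1 estimate of the spread. The 297 was 33 without WT_12m replicate 40 and 587 without NLRP3_12m replicate 42, and also lower without WT_12m replicate 34 (135) and NLRP3_12m replicates 45 (134) and 47 (194). The 65 was 24 to 32 without any of the 3 APPPS1_NLRP3_12m_Mxo4 libraries, and the 100 was 32, 29 and 45 without APPPS1_6m replicate 22, 23 or 24.

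All 4 comparisons called 12 genes in the same direction. Among those with a gene name were Nlrp3 and Ndst1, which fell, and Slc1a3, Ranbp3l, Sgsh, Gnb1 and Rnaset2a, which rose. Ndst1, which encodes an enzyme of heparan sulfate synthesis, differed by -0.54 (adjusted p 0.0201), -0.70 without the transgenes, -0.71 in the Mxo4 libraries and -0.66 at 6 months. The annotated ends of Ndst1 and Rps14 overlap, so some of their reads cannot be told apart. Gnb1, a G protein subunit gene, differed by 0.74, 0.87, 0.91 and 0.94, and in APPPS1_NLRP3_12m replicate 43 it was at 254 CPM, within the 175 to 256 CPM of the APPPS1_12m libraries. For Slc1a3 the 4 differences were 3.03, 2.55, 3.19 and 2.77. These genes were named because of the overlap, after their values were seen.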

How the data were processed

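RNA from CD11b+ brain cells was read as paired 125 bp reads, per the labels' protocols; libraries were made in 2 batches and pooled by 7 to 8. The authors deposited 1 table of raw counts per gene. The submitters' processing notes name Trimmomatic, TopHat, HTSeq and mm10, with no versions; strand setting is not given in the sources used here. Of 53801 gene identifiers, 53706 matched GENCODE vM21 (GRCm38). The counts were fitted in edgeR 4.0.16 (R 4.3.3) on all 62 libraries after filterByExpr (minimum count 10) with TMM normalization, group and the second number in the title as terms; that number takes 2 values of 31 libraries each. Its meaning is not given in the labels. Differences come from the quasi-likelihood test with Benjamini-Hochberg adjustment over all 19865 genes and were called at 0.05. CPM values use TMM-scaled totals, and SE is the log2 difference over the square root of F. The fit was tested on simulated data. DESeq2 1.42.0 and other settings were alternatives. The 16 pairs of libraries within the APPPS1_12m and APPPS1_NLRP3_12m groups all differed by more than sampling noise (chi-square per degree of freedom at least 18.9). The members, lists and tests were chosen with earlier results of these data known. Named genes are a fixed set of 18, the 12 largest rises and falls among called genes with at least 5 CPM and no overlap, up to 4 called genes per list, up to 10 within 20 Mb of Nlrp3 and any called between backgrounds; others were chosen after their values were seen. An APPPS1_6m library of 659 counts stayed in the fit and out of means. Some genes that the naming rule selects are not reported here.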

Additional observations from a re-analysis of the deposited data

Results flagged for a closer look

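Il1b differed between backgrounds: the Nlrp3 difference with the transgenes minus that without was -2.55 on the log2 scale (adjusted p 0.0289), with -0.72 in the first and 1.82 in the second.

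A library stood far from the rest of its group in 17 of 222 gene and group pairs, where the 95% criterion used would give about 1 in 20 for genes not chosen by their values, as many of these were. In APPPS1_12m, replicate 41 stood apart for App (171 CPM), Atf4 (354 CPM) and Hlf (1.95 CPM), replicate 37 for Atp2b2 (7.27 CPM) and Syt16 (3.07 CPM), replicate 38 for Fabp4 (5.99 CPM) and Plac8 (39.7 CPM), and replicate 36 for H2-K1 (1098 CPM). In APPPS1_NLRP3_12m, replicate 43 stood apart for Slc1a3 (202 CPM) and Atf4 (234 CPM), and replicate 46 for App (347 CPM), Pdgfrb (4.56 CPM) and Plac8 (2.23 CPM). Replicate 49 stood apart for Nlrp3 (2.27 CPM), Cd14 (778 CPM), Cst7 (1096 CPM) and Tyro3 (4.00 CPM). The Nlrp3 and Tyro3 values are high in their group, and the Cst7 value is low.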

How the results depend on the processing

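The 1165 calls became 162 with only the 4 untagged groups at 12 months, 181 with the 2 groups alone, 472 with the first title number, 165 with sex, 34 and 2246 within second title numbers 1 and 2, and, by choices made after seeing the data, 60 without the 2 neuron-rich libraries and 267 without replicates 38 and 41; leaving out 1 library gave 287 to 2233. Without transgenes the count of 297 became 77, 25, 141, 145, 26 and 11 under the first 6 of these, and 33 to 587 leaving out 1 library. The single call between backgrounds became 71 with DESeq2, 11 with its size factors, 14 with no filter, 4 without the second number, 22 within second number 2, 3 without the neuron-rich libraries and 0 with the 4 groups, the first number, second number 1 or without replicates 38 and 41, and 0 to 215 leaving out 1 library. The Mxo4 count of 65 became 1320 with 2 groups and 736 within second number 2 (24 to 64 leaving out 1); within number 1 it could not be fitted. The 6-month count of 100 became 50 with 2 groups, 52 with the first number, 2 and 21 within second numbers 1 and 2 (29 to 89 leaving out 1). All APPPS1_NLRP3_12m_Mxo4 libraries carry second number 2, and in APPPS1_12m_Mxo4 only replicate 56 does, the library that went against its label. With 2 groups and within second number 2, the Mxo4 contrast therefore rests on that library as its only control. Without transgenes, WT_12m replicate 40 alone has number 1 in its group, and NLRP3_12m replicate 42 alone has number 2. Fits that rest on such single libraries cannot decide which calls hold. The causes of the other changes were not tested. Signs turned within second number 1 for Il18 (0.062), Pycard (0.12), Trem2 (0.002), P2ry12 (0.125), Ndufs4 (0.053), Rps14 (0.007) and Rps27a (0.038), within number 2 for Fabp4 (1.076), with sex for Cst7 (0.11), without replicates 38 and 41 for P2ry12 (0.081), and leaving out replicate 41 for P2ry12 (0.051; range from -0.225). Of the values under alternatives, 1054 stayed on their side of the threshold and 453 lost it, and 779 and 206 when leaving out 1 library. Depth limits genes of few counts most in replicate 41. No paired analysis was possible because no replicate number is shared by 2 libraries; the first title number, which some libraries of both groups share, was fitted as a term instead (472).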

Other observations

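Other brain and blood cell markers gave no calls in the comparison of APPPS1_NLRP3_12m with APPPS1_12m. All 10 markers of border-associated macrophages, which line vessels and meninges, had log2 differences above 0, with a median of 0.58 and summed levels of 292 to 725 CPM without Nlrp3 and 198 to 453 CPM with it. All 11 astrocyte markers were above 0 (median 0.43), with sums of 99.1 to 707 CPM against 113 to 327 CPM and the highest value in replicate 49. Oligodendrocyte markers (9 tested, median 0.27), dendritic cell markers (7 tested, 0.16) and markers of choroid plexus and ependyma (8 tested, -0.12) overlapped between the groups. Erythroid markers (4 tested, -1.15), B cell markers (4 tested, -1.42), mast cell markers (2 tested, -0.08) and pituitary markers (3 tested, 0.64) were also not called. At 0 counts in all 9 libraries were Pax5 of the B cell list, Mcpt4 of the mast cell list and Gh, Prl and Tshb of the pituitary list.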
